A study of Mus musculus with 92 samples.

Results

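At the third of 5 doses of baricitinib, mouse macrophages labelled Adar1 KO held more RNA of interferon-stimulated genes than control macrophages, and Ifit3, Rsad2, Ifi44, Ifit1, Usp18 and Irf7 were higher by log2 fold changes of 6.70 to 8.82. RNA of H2-K1 and B2m, the chains of MHC class I, rose as well, as did RNA of the chemokines Ccl5, Ccl7 and Ccl2. The division genes Mki67, Top2a and Kif11 fell, and so did the scavenger receptors Cd36 and Cd163, while Msr1, Axl and Mertk of the same list rose by smaller amounts. RNA of Csf1r, the receptor through which macrophages receive their survival signal, could not be told apart between the groups. Adar itself was higher, not lower, in the libraries labelled Adar1 KO.

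ADAR1 converts adenosine to inosine in double-stranded RNA, which keeps a cell's own RNA from being taken for viral RNA by the sensor MDA5, the product of Ifih1. MDA5 and RIG-I signal through MAVS to the production of type I interferon. Interferon binds the receptor made of IFNAR1 and IFNAR2, and the kinases JAK1 and TYK2 then activate STAT proteins, which join IRF9 and turn on interferon-stimulated genes; baricitinib inhibits JAK kinases.

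The comparison uses 7 of the 92 samples of the series, chosen as the samples of both genotypes at the third dose: 3 RNA-seq libraries labelled Adar1 KO and 4 with a non-targeting control guide (NTC). The macrophages came from bone marrow progenitors of FVB mice that an estrogen-regulated Hoxb8 fusion protein holds immature. Progenitors carrying Cas9 received the control guide or guide 1 against Adar, were sorted on the vector's fluorophore, and were differentiated for 7 days in the growth factor M-CSF. Baricitinib, which is given to patients with the interferon disease Aicardi-Goutieres syndrome, was added at each change of medium. The question is how the RNA of cells given the Adar guide differs from that of control cells in the presence of this dose of the inhibitor.

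All 7 libraries share strain, Cas9 line, differentiation, day and dose, and the groups differ in the guide. They are sorted populations of cultured cells and not clones, and with 1 guide an effect on Adar cannot be told apart from an effect of that guide elsewhere. The sample labels put the third dose at 0.016 µM and the treatment protocol puts it at 0.16 µM. By the labels the next dose, 0.4 µM, was 25-fold higher, and by the protocol it was 2.5-fold higher, so the dose is called the third dose here.

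Depth was 8.29, 30.6 and 10.2 M counts in Adar1 KO replicates 1 to 3 and 6.16, 13, 10.8 and 16.6 M in NTC replicates 1 to 4. Between 10050 and 10075 genes passed 1 CPM (counts scaled to a common library size) in each Adar1 KO library, against 10142 to 10245 in each NTC library. Mitochondrial genes held 0.502%, 0.448% and 0.608% of the Adar1 KO libraries and 0.727%, 0.802%, 0.749% and 0.789% of the NTC libraries, ranges that do not overlap. Values are the log2 CPM deposited by the authors, in which a gene without reads holds −2.78. Differences were tested with limma in a model of all 33 libraries of the baricitinib experiment, and p-values were adjusted by the Benjamini-Hochberg method over 11152 genes. Genes tested had more than 1 CPM in at least 3 of those libraries. A gene nearly absent from 1 genotype can pass that filter through the other alone. The count of changed genes among those tested in a list is therefore partly set by the filter. A gene counted as changed at an adjusted p under 0.05, and as changed by the study's size criterion when its log2 fold change (log2FC, Adar1 KO minus NTC) was also at least 2 in size. The p-values measure the spread between these samples, part of which may be technical. By the methods the replicates were differentiated independently. A difference between the Adar1 KO and NTC lines that arose apart from the guide is not covered by the p-values. RNA was taken from whole cultures, so a change in the mixture of cells cannot be told apart from a change of RNA within a cell.

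Of the 33 libraries, Adar1 KO replicate 2 at 0.4 µM stood apart, with a mean over 20 interferon-stimulated genes of 10.08 where the lowest library of its group read 1.78. Whether its dose label is right is not known from the files. It is not among the 7 libraries compared here, but the model estimates the spread from all groups. The median standard error (SE) of those 20 genes was 1.03 with it, 0.36 without it and 0.175 from the 7 libraries alone, so both fits are given for Adar, Ifit3 and Cxcl10 and for each list whose count past the size criterion changed. Leaving it out moved the number of genes past the size criterion from 571 to 580, with 570 in both.

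Adar read 6.25, 5.90 and 6.37 in the 3 Adar1 KO libraries and 4.31, 4.58, 4.40 and 4.34 in the 4 NTC libraries. Each Adar1 KO value lay above each NTC value, the opposite of a loss of transcript, and the log2FC was 1.77 (SE 0.45, adjusted p 0.00303). Without the library that stood apart the SE was 0.232 and the adjusted p 5.21e-07. Cas9 cuts can destroy a protein without lowering its RNA, and Adar is itself an interferon-inducible gene. By the methods, editing was checked by sequencing DNA around the cut; whether ADAR1 protein was lost was not tested here. At 10 µM baricitinib the order turned round, with Adar at 1.55 to 2.91 in Adar1 KO and 3.22 to 3.70 in NTC libraries. The relative Adarb2 did not pass the test (log2FC −0.50, adjusted p 0.486), and Adarb1 was too low to be tested. So 1 of the 2 genes of this family tested changed, and their median log2FC of 0.63 describes neither gene.

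Of 11152 genes tested, 571 (5.12%) passed the size criterion, 261 higher (2.34%) and 310 lower (2.78%) in the Adar1 KO libraries. At any size, 1846 genes were higher (16.6%) and 1748 lower (15.7%). In 556 genes (4.99%) the criterion was met and no Adar1 KO value fell within the NTC range. The median log2FC over all genes tested was 0.000829. With 1 added to each CPM 348 genes passed the size criterion, 190 higher and 158 lower, so the balance turned round. With a mean CPM above 5 it was 355, 177 higher and 178 lower.

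Among interferon-stimulated genes, 20 that the study picked in macrophages of this line were read first, and all 20 were higher past the size criterion, with a median log2FC of 5.32. Because the study chose them, that count is not independent evidence of its direction. All 20 met the criterion without the library that stood apart too, and 19 did under quantile normalization. Their mean was 7.73, 7.70 and 7.44 in the Adar1 KO libraries and 2.26, 2.30, 2.29 and 2.33 in the NTC libraries. Summed over the 20 genes, RNA came to 7580, 7620 and 6160 CPM in Adar1 KO against 282, 312, 304 and 287 CPM in NTC.

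Ifit3, whose protein holds a complex that binds foreign RNA, read 9.80, 9.69 and 9.63 in Adar1 KO and 1.46, 0.73, 0.26 and 1.09 in NTC libraries. The groups lay far apart, with a log2FC of 8.82 (SE 1.36, adjusted p 1.26e-05; without the library that stood apart, SE 0.5 and adjusted p 4.47e-14). Its near-identical neighbour I830012O16Rik (Ifit3b) read 8.66, 8.57 and 8.12 against 0.69, −0.51, −0.52 and −1.84. Here too no value overlapped (log2FC 8.99, SE 1.45, adjusted p 2.18e-05), though reads of such similar genes can be split between them in ways the table does not show. Rsad2, which encodes the antiviral enzyme viperin, read 6.78, 6.53 and 7.10 against −1.64, −2.18, −1.28 and −0.11. The groups did not overlap, and NTC replicate 4 was the highest of its group (log2FC 8.11, SE 1.34, adjusted p 3.22e-05). Ifi44, an antiviral protein of the cytoplasm, read 6.96, 6.93 and 6.10 against −1.08, −0.68, −1.74 and −2.02. Its groups did not overlap, and its log2FC was 8.05 (SE 1.11, adjusted p 2.43e-06). Ifit1, which binds RNA that lacks a proper cap, stood at 9.36, 9.23 and 9.00 against 1.56, 1.10, 1.51 and 1.36. Again the groups were separate (log2FC 7.82, SE 1.26, adjusted p 2.12e-05).

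The transcription factors Irf7, Stat2 and Irf9 rose. Irf7, which amplifies interferon production, read 9.18, 9.11 and 8.77 in Adar1 KO and 2.63, 1.99, 2.50 and 2.17 in NTC libraries. Those ranges were separate (log2FC 6.70, SE 1.08, adjusted p 2.37e-05). Stat2, which the receptor's kinases activate, was higher by a log2FC of 2.80 (adjusted p 0.00135), and Irf9, its partner on DNA, by 2.32 (adjusted p 3.4e-05). Usp18, which removes ISG15 and restrains the receptor, rose by 7.52 (adjusted p 3.35e-05).

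**Figure D1:**
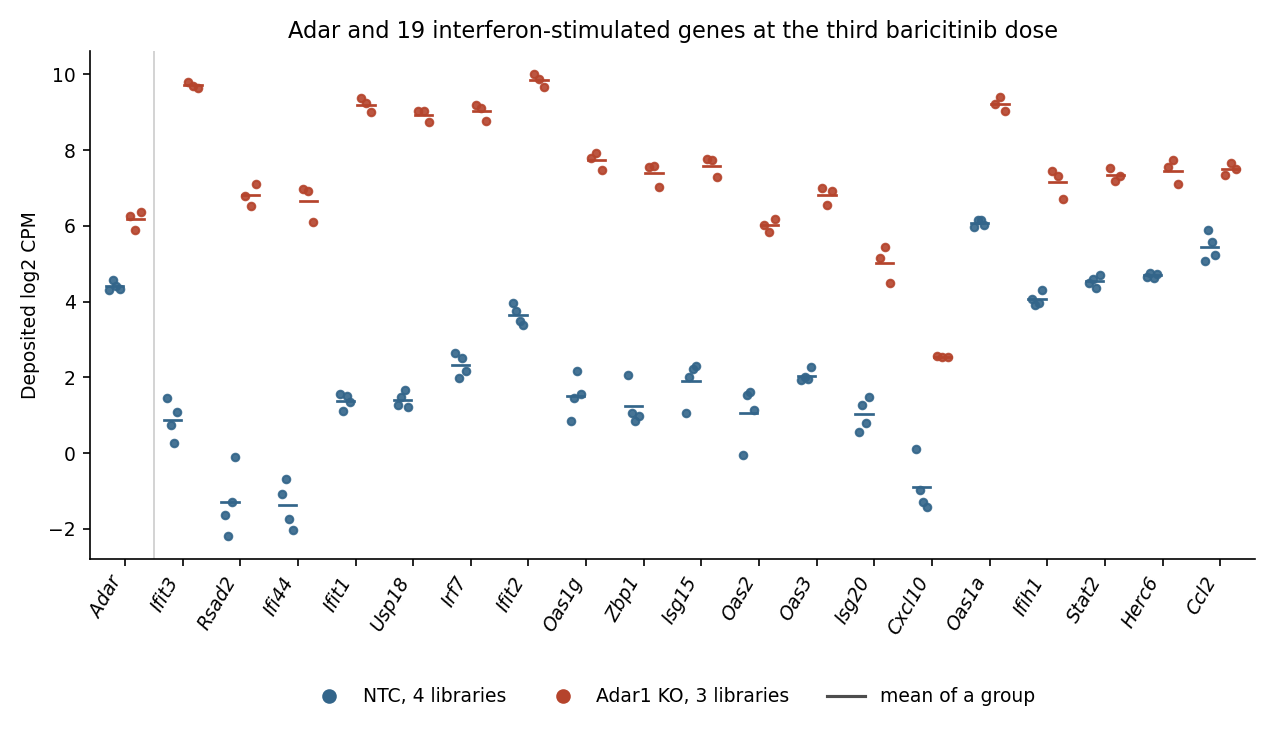
Deposited log2 CPM (vertical axis) of Adar and of 19 interferon-stimulated genes (horizontal axis, ordered by fold change) in each library, blue for the 4 NTC and red for the 3 Adar1 KO libraries, with a short line at the mean of each group. In every gene drawn each red point lies above each blue point, from Ifit3 with a log2FC of 8.82 to Ccl2 with 2.05 and Adar with 1.77.

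The plot of interferon-stimulated genes shows the groups apart in each gene. The smallest change of the list was that of Ccl2, which draws monocytes into tissue, at 2.05 (SE 0.42, adjusted p 0.000368). Cxcl10, which draws T cells, read 2.56, 2.54 and 2.54 in Adar1 KO and 0.10, −0.97, −1.29 and −1.41 in NTC libraries. The groups did not overlap, but the level was low and the SE large (log2FC 3.44, SE 1.17, adjusted p 0.0246). With 1 added to each CPM before the logarithm its log2FC was 2.24 and it did not pass the test, while without the library that stood apart its adjusted p was 2.33e-06. It was the only gene tested, and called, among the 3 ligands of the receptor CXCR3. At the third dose it passed 1 CPM in the Adar1 KO libraries only, so being tested is not separate evidence of a rise.

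Promoters of these genes were read for the short element GAAANNGAA, which interferon-activated factors can bind, and for TTCNNNGAA, to which STAT dimers can bind, on both strands. The first occurs in 8.56% of 32851 promoters of RefSeq genes (GRCm38.p6) and the second in 8.3%. The annotation gives 18 promoters for 15 of the interferon-stimulated genes. Of these 15 genes, 11 held the first element in any of their promoters and 3 the second. Those counts are of genes, whereas the percentages above are of promoters. A match describes the sequence and is neither a shown binding site nor a cause of a change in RNA. Promoters are given for the 4 genes with the largest rises among those that hold the first element, with capitals marking its matches; Ifit3 lies at chr19:34583279-34583578 (plus strand), Rsad2 at chr12:26456403-26456702 (minus strand), Ifi44 at chr3:151749861-151750160 (minus strand) and Ifit1 at chr19:34640639-34640938 (plus strand). Ifit3 and Ifit1 have 3 matches each, of which a pair in Ifit1 overlap, and Rsad2 and Ifi44 have 1 each; none of the 4 holds the second element.
Ifit3: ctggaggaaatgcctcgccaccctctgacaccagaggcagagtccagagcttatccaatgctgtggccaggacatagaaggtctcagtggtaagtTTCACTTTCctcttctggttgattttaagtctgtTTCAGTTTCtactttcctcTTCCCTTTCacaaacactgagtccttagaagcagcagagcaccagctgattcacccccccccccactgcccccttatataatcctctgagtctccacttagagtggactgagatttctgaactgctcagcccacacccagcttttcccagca
Rsad2: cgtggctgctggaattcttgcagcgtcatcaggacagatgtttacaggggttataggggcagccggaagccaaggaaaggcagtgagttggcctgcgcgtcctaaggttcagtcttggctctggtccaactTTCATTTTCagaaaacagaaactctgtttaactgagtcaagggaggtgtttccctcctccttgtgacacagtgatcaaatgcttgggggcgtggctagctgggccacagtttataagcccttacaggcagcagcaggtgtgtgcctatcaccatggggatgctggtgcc
Ifi44: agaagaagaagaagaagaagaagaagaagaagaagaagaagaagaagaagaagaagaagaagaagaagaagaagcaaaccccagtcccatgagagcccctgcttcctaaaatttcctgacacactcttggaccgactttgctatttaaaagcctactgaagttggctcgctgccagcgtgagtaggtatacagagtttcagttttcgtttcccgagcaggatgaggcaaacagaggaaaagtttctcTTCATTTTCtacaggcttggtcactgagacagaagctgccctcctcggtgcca
Ifit1: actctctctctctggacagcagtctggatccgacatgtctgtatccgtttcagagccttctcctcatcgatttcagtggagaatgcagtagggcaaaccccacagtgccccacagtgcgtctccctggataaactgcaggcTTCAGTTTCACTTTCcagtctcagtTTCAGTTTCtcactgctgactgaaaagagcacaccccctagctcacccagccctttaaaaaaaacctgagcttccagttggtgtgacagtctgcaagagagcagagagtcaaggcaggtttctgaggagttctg

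Sensors of double-stranded RNA were the next group. Ifih1, which encodes MDA5, read 7.44, 7.31 and 6.71 in Adar1 KO and 4.06, 3.92, 3.97 and 4.30 in NTC libraries. All 3 Adar1 KO values were the higher ones (log2FC 3.09, SE 0.67, adjusted p 0.000724). Ddx58, which encodes RIG-I, rose by a log2FC of 3.32 (SE 0.72, adjusted p 0.000738), and Dhx58, a helper of both sensors, by 2.04 (adjusted p 0.00397). Zbp1, which binds left-handed double helices and can trigger cell death, was higher by 6.15 (SE 0.89, adjusted p 5.25e-06). Eif2ak2, the kinase PKR that halts translation, rose by 1.85 (adjusted p 0.000308), short of the size criterion. Mavs, the adaptor of MDA5 and RIG-I, could not be told apart between the groups (0.12, adjusted p 0.616), nor could Tlr3 (−0.15, adjusted p 0.885). Of 13 genes of this sensing pathway, 4 passed the size criterion and 6 were higher at any size, with a median of 0.64; under quantile normalization 3 passed it.

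Genes of DNA sensing changed in part. Of 9 genes tested, 4 passed the size criterion and their median was 1.66. Trex1, which degrades stray DNA, rose by 2.49 (SE 0.50, adjusted p 0.000296), and the related Ifi203, Mndal and Ifi204, which bind DNA in the nucleus, rose by 3.69, 3.45 and 3.15. Neither Mb21d1, the enzyme cGAS (0.31, adjusted p 0.418), nor Tmem173, the adaptor STING (0.21, adjusted p 0.306), passed the test.

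Antiviral effectors were read in lists of their own. All 7 genes tested of the Ifit, Mx and viperin group passed the size criterion (median 7.82), among them Mx1 (4.60) and Mx2 (5.89), which trap viral particles. Of 9 genes of the OAS pathway, which has RNA cut once double strands are sensed, 7 passed it and the median was 4.48. Oasl2 read 9.20, 9.19 and 8.79 in Adar1 KO against 0.34, 0.44, 1.52 and 0.05 in NTC libraries. That gap gave a log2FC of 8.47 (SE 1.32, adjusted p 1.39e-05). Reads of Oas1a (3.15) and Oas1g (6.21) could be split between similar copies, which makes their separate values uncertain. Isg15, a ubiquitin-like tag, rose by 5.69 (SE 1.01, adjusted p 6.78e-05), and of 6 genes of its pathway, Isg15 included, 5 passed the criterion (median 2.76) and Trim25 did not (0.23, adjusted p 0.554). Among 5 genes for IFITM proteins and tetherin, only tetherin (Bst2, 2.91) passed it, and the median was 0.27 (0.05 under quantile normalization).

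GTPases that attack the compartments of pathogens were higher. Of 8 guanylate-binding protein genes tested, 7 passed the size criterion (median 4.67), led by Gbp7 at 6.88; 8 did without the library that stood apart, where Gbp4 moved from an adjusted p of 0.112 to 0.0268. With 1 added to each CPM, 5 of the 8 passed. In the fit of the 7 libraries alone Gbp4, Gbp5 and Gbp11 were too low to be tested, and the 5 tested all passed. All 6 immunity-related GTPase genes tested passed it (median 4.19, or 3.75 with genes absent from NTC at their lower bound), including Irgm1 at 4.06. Iigp1 had no reads in any NTC library and was at least 10.9-fold higher against a floor of 3 counts per library. Genes so low in NTC can enter the test through the Adar1 KO libraries where they are high, which favours a full count in these lists. Slfn1, of the Schlafen family that limits translation, read 9.47, 9.47 and 8.84 against 2.33, 2.27, 2.17 and 2.43. The ranges did not meet (log2FC 6.96, SE 0.89, adjusted p 7.14e-07), and of 13 genes, which are Schlafen and PARP genes and Dtx3l, 8 passed the criterion (median 2.09). Gbp and Slfn genes lie in families of similar copies, so the share of each copy is uncertain.

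Interferon genes themselves were scarce. Ifnb1, which encodes interferon beta, read 0.15, 0.13 and −0.10 in Adar1 KO libraries and had no reads in the 4 NTC libraries. That is at least 3.06-fold higher against a floor of 3 counts per library, and the test missed the threshold (log2FC 2.84, SE 1.11, adjusted p 0.0503), which it passed under quantile normalization; without the library that stood apart it was too low to be tested. Ifnk, an interferon of skin, was not changed (−0.79, adjusted p 0.285), and 9 other interferon genes were too low to be tested. The median of the 2 genes tested was 1.02, or 0.41 with Ifnb1 at its bound. Among 5 receptor genes 0 passed the size criterion, 1 was higher and 2 lower at any size, and the median was −0.35; Ifnar1 fell by 0.86 (adjusted p 5.48e-07).

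Genes of JAK and STAT signalling changed in few members. Of 11 tested, 2 passed the size criterion, Stat2 among them, and the median was 0.36 (0.21 under quantile normalization). Jak2, 1 of the kinases baricitinib inhibits, rose by 1.34 (adjusted p 0.00613), while Jak1 could not be told apart between the groups (0.26, adjusted p 0.31). Among 7 feedback genes, Usp18 and Pim1 passed it and the median was 0.81, but the groups of Pim1 overlapped. In the fit of the 7 libraries alone Pim1 (log2FC 2.09) did not pass the test (adjusted p 0.0749). Socs3, an inhibitor of JAK kinases, missed the test (1.5, adjusted p 0.0638; 0.0391 without the library that stood apart). In the IRF family 2 of 7 genes passed it, Irf7 and Irf9 (median 0.65), while Irf1 rose by 1.17 and Irf5 fell by 0.55.

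Chemokines and cytokines gave a mixed list. Ccl5, which draws T cells and monocytes, read 8.25, 8.28 and 7.49 in Adar1 KO and 1.15, 0.33, 0.12 and 0.93 in NTC libraries. The groups were far apart (log2FC 7.37, SE 0.99, adjusted p 1.62e-06). Ccl7, a monocyte chemokine, rose by 3.20 (adjusted p 0.000264), whereas Ccl22, which draws regulatory T cells, fell by 1.39 (adjusted p 0.0101). Of 9 CC chemokines tested 3 passed the size criterion (4 without the library that stood apart), 5 were higher and 2 lower at any size, and the median was 1.45. Il1rn, the antagonist of interleukin 1, read 5.96, 6.41 and 6.27 against 2.71, 3.25, 2.95 and 2.98. It was high in all 3 Adar1 KO libraries (log2FC 3.24, SE 0.39, adjusted p 2.6e-07). Il27, a regulator of T cells, rose by 2.71, and Tnf, the inflammatory cytokine, missed the test (0.72, adjusted p 0.0524; 0.00757 without the library that stood apart). Of 10 cytokine genes 2 passed the criterion (3 without that library, 4 under quantile normalization), with a median of 0.95.

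RNA of most MHC class I genes rose. H2-K1, a heavy chain that shows peptides to T cells, read 10.88, 10.97 and 10.78 in Adar1 KO and 7.98, 7.76, 7.84 and 7.90 in NTC libraries. No library crossed into the other group (log2FC 3.01, SE 0.30, adjusted p 1.15e-08). B2m, the light chain, read 12.96, 12.95 and 12.91 against 10.25, 10.26, 10.23 and 10.31. Again the groups were separate (log2FC 2.68, SE 0.28, adjusted p 2.19e-08). Tap1, the peptide transporter, rose by 2.12 and Psmb8, of the immunoproteasome, by 1.65; H2-Q6 (5.07) and H2-Q7 (4.12) are similar copies whose reads could be split. Of 19 class I genes 7 passed the size criterion and 17 were higher at any size (median 1.67), while Nlrc5, their transactivator, could not be told apart (−0.22, adjusted p 0.916). Among 3 class II genes 0 passed it and 2 were higher at any size (median 0.74), and Cd74, the invariant chain, was not changed (0.02, adjusted p 0.965).

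RNA of some surface proteins that T cells read was higher, in 6 of 9 genes tested at any size. Cd86, a co-stimulator, read 6.96, 7.19 and 6.37 in Adar1 KO and 3.59, 3.83, 3.97 and 3.70 in NTC libraries. All Adar1 KO libraries were higher (log2FC 3.07, SE 0.24, adjusted p 1.83e-10). Cd274, the checkpoint ligand PD-L1, rose by 3.01 (adjusted p 0.000151) and Cd69, an activation marker, by 3.38 (adjusted p 0.000429). Of 9 genes of this list 4 passed the size criterion (5 without the library that stood apart) and the median was 2.09. Among 5 Fc receptor genes, Fcgr1 (2.50) and Fcgr4 (2.70), which bind antibody, passed it and all 5 were higher at any size (median 1.80), 4 of them under quantile normalization.

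**Figure D2:**
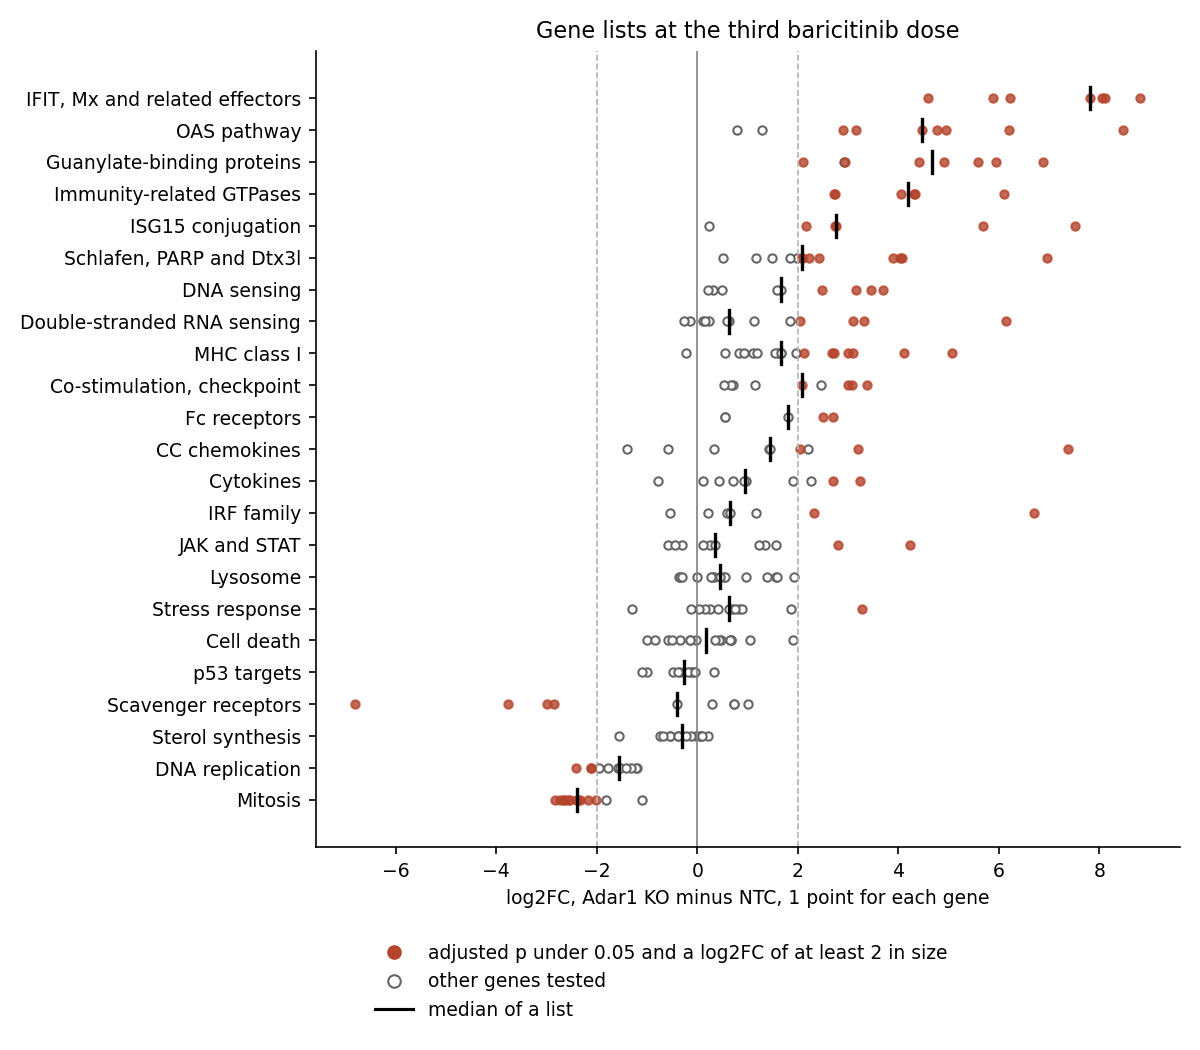
Log2FC of Adar1 KO minus NTC (horizontal axis) for the genes of 23 lists (vertical axis), 1 point for each gene tested, filled when the adjusted p was under 0.05 and the log2FC at least 2 in size, with a bar at the median of each list and dashed lines at the size criterion. The medians run from 7.82 for the Ifit and Mx group to −2.40 for mitosis.

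The plot of lists shows that most interferon-linked lists lie to the right of 0 and that both division lists lie wholly to the left. The genes with the largest rises outside those lists were read by the naming rule. Atp1b2, a subunit of the sodium and potassium pump, read 7.01, 6.04 and 6.75 in Adar1 KO and −2.78, −2.78, −2.13 and −1.98 in NTC libraries. By the estimated depth the 4 NTC libraries held 2.67 counts in all, and the ratio of the Adar1 KO mean to their pooled CPM was 1760 with a counting interval of 567 to 9730 (log2FC 9.02, SE 0.57, adjusted p 2e-12). Ly6a, the stem cell antigen Sca-1, read 8.05, 7.72 and 7.23 against −0.34, −2.22, −0.61 and −1.84. It was high in all 3 Adar1 KO libraries (log2FC 8.92, SE 0.97, adjusted p 5.71e-08). Ly6i, a similar copy, was higher by a ratio of 743 (interval 290 to 2730; log2FC 8.12, adjusted p 2.58e-08), and reads of the Ly6 family may be split between copies. Pydc3, of a family of inflammasome regulators, read 6.53, 6.27 and 5.45 against −2.78, −2.78, −1.63 and −1.21. Its groups did not overlap (log2FC 8.18, SE 1.25, adjusted p 1.13e-05). Ms4a4c, a membrane protein of leukocytes, rose by 8.12 (SE 1.23, adjusted p 9.7e-06), with 1 NTC library at 0.58 and the others at −1.97 to −1.67.

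Macrophage identity was read from 13 genes that the study used as macrophage markers, which is not independent evidence of their direction. Csf1r read 10.63, 10.43 and 10.35 in Adar1 KO and 10.61, 10.67, 10.70 and 10.75 in NTC libraries. The groups overlapped and the test missed the threshold (log2FC −0.21, SE 0.21, adjusted p 0.463). Cd14, the lipopolysaccharide co-receptor, was the most abundant of the list in both groups and was not changed (0.10, adjusted p 0.674), nor was Cd68, a lysosomal marker (−0.20, adjusted p 0.232). Itgam, which encodes CD11b, read 9.05, 8.90 and 8.84 against 9.80, 9.82, 9.86 and 10.01. All 3 Adar1 KO values were lower (log2FC −0.94, SE 0.18, adjusted p 0.000182). Aif1, which encodes IBA1, was higher by 1.54 (SE 0.40, adjusted p 0.00389). Of the 13 genes 0 passed the size criterion, 7 were higher and 3 lower at any size (6 and 4 under quantile normalization), and the median was 0.36 (0.17 under quantile normalization). Summed, the 13 genes came to 15200, 17700 and 13900 CPM in Adar1 KO and 14500, 14700, 14400 and 14500 CPM in NTC libraries, so the macrophage label matched abundant macrophage markers in all 7.

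**Figure D3:**
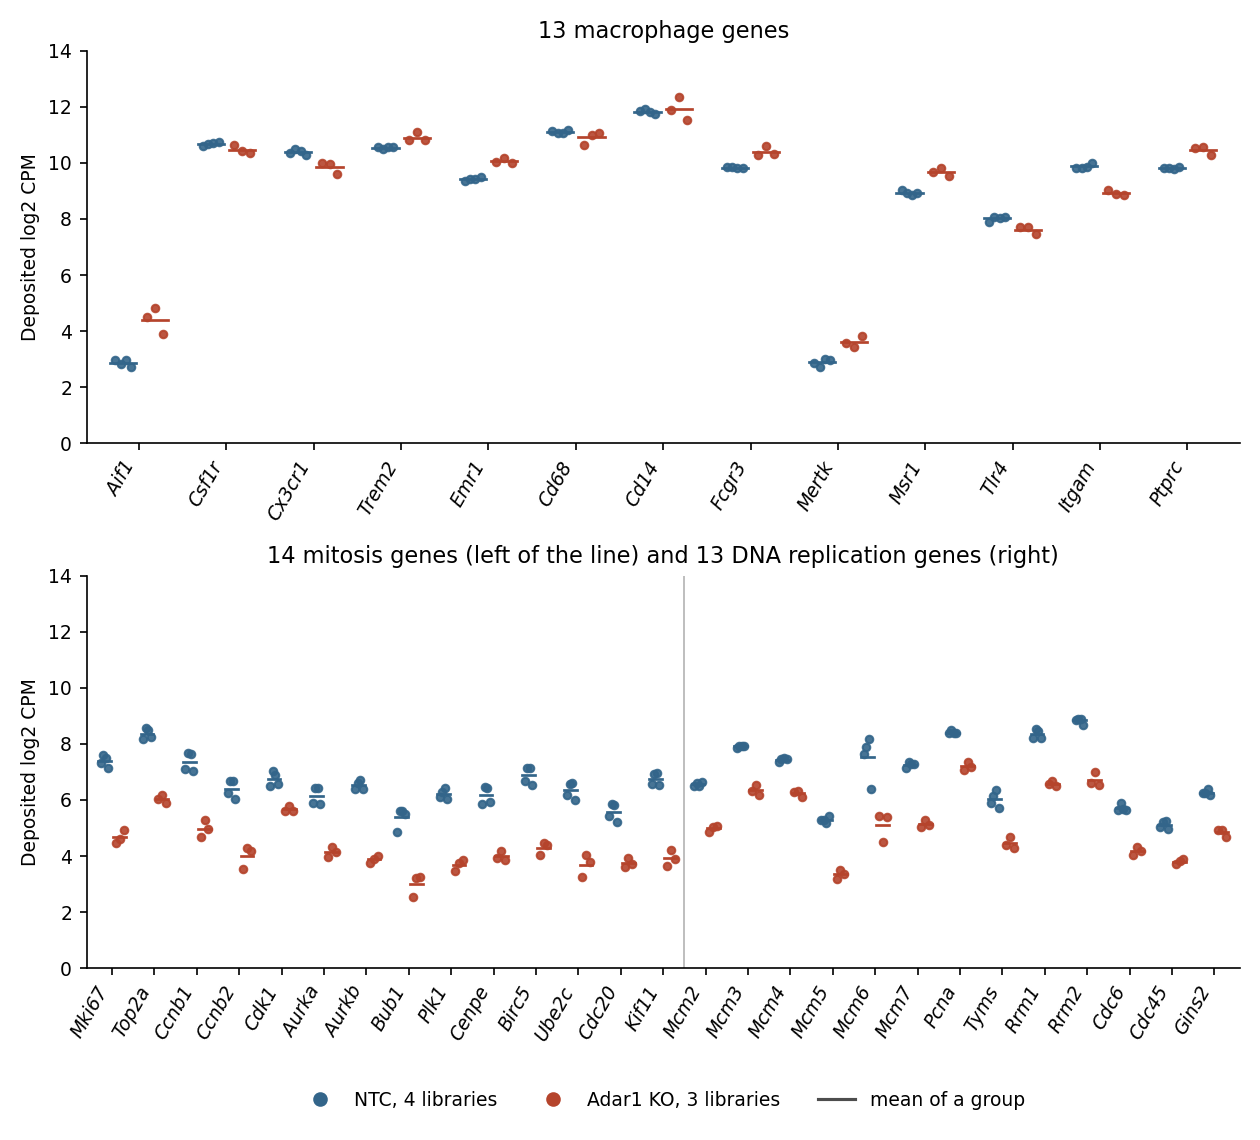
Deposited log2 CPM (vertical axes) of 13 macrophage genes (upper panel) and of 14 mitosis and 13 DNA replication genes (lower panel) in each library, blue for the 4 NTC and red for the 3 Adar1 KO libraries, with a short line at the mean of each group. In the lower panel every red point lies below every blue point of its gene, while the macrophage genes lie close together, from a log2FC of −0.94 for Itgam to 1.54 for Aif1.

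Division genes fell as a group, as the lower panel of the plot of macrophage and cell cycle genes shows. Mki67, which encodes the proliferation marker Ki-67, read 4.47, 4.61 and 4.91 in Adar1 KO and 7.31, 7.62, 7.51 and 7.13 in NTC libraries. The groups were separate by more than their own spread (log2FC −2.73, SE 0.35, adjusted p 8e-07). Top2a, which untangles chromosomes, read 6.02, 6.16 and 5.89 against 8.18, 8.58, 8.48 and 8.23. It was low in all 3 Adar1 KO libraries (log2FC −2.34, SE 0.32, adjusted p 1.79e-06). Kif11, a motor of the spindle, fell by 2.83 and Aurkb, a mitotic kinase, by 2.65. All 14 mitosis genes were lower at any size, 12 of them past the size criterion, with a median of −2.40. Summed, they came to 283, 355 and 320 CPM in Adar1 KO and 1360, 1830, 1790 and 1330 CPM in NTC libraries, with Top2a the most abundant in both. All 13 DNA replication genes were lower as well, 3 of them past the criterion, with a median of −1.56; Mcm6 and Mcm7, of the replicative helicase, fell by 2.42 and 2.11, and Pcna, the sliding clamp, by 1.21. Cdkn1a, an inhibitor of the cycle, did not pass the test (−0.48, adjusted p 0.12). Of 10 targets of p53 0 passed the size criterion and 2 were lower at any size (median −0.26). Over all genes tested 15.7% were lower at any size, so the p53 list is not read as changed. Whether fewer cells divided or each held less of this RNA was not tested.

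Monocyte genes split in direction. Chil3, a secreted lectin of inflammatory monocytes, read 6.96, 7.25 and 7.29 in Adar1 KO and 2.11, 2.43, 2.35 and 2.75 in NTC libraries. Each Adar1 KO library was high (log2FC 4.76, SE 0.22, adjusted p 2.58e-15). Ly6c2, the surface marker of those monocytes, rose by 4.73 (SE 0.39, adjusted p 4.16e-10), and Plac8, also a monocyte gene, by 7.51 (SE 1.06, adjusted p 3.26e-06). Ccr2, the receptor for Ccl2, read 6.61, 6.74 and 5.11 against 8.25, 8.25, 8.28 and 8.27. It was lower in all 3 Adar1 KO libraries (log2FC −2.11, SE 0.39, adjusted p 0.000126). Of 7 monocyte genes tested 3 were higher and 1 lower past the size criterion, and 4 were lower at any size, so the median (−1.26) and the mean (1.51) differed in sign. Summed, the list held 1300, 1270 and 983 CPM in Adar1 KO and 1410, 1580, 1620 and 1430 CPM in NTC libraries, with F13a1, a clotting factor subunit, the most abundant in both; its part in the other changes was not tested.

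Markers of other cells were low. Progenitor genes summed to 4.11, 4.55 and 3.82 CPM in Adar1 KO and 1.90, 1.62, 3.18 and 2.61 CPM in NTC libraries; of 2 tested Cd34, a stem cell marker, was higher (2.16, adjusted p 2.68e-05) and Hoxb8, the gene of the immortalizing factor, lower at any size (−1.88, adjusted p 0.00934), and Kit, Hoxa9, Hoxa10 and Gata2 stood at 0. Neutrophil genes summed to 66.4, 57.9 and 66.6 CPM against 72.4, 49.1, 59.0 and 82.9 CPM, mostly S100a8, a calcium-binding protein; of 3 tested 1 passed the size criterion, Camp, an antimicrobial peptide, at a ratio of 18 (counting interval 6.14 to 87.8). Dendritic cell genes summed to 6.76, 7.03 and 7.88 CPM against 9.53, 9.53, 6.71 and 11.9 CPM, mostly Itgax, with 0 of 2 changed. Mast cell and eosinophil genes summed to at most 0.859 CPM in any library and 0 of the 1 tested changed. Lymphocyte genes summed to at most 0.348 CPM, 0 could be tested, and Cd3e stood at 0. With 1 added to each CPM neither Cd34 nor Camp passed the size criterion. Any part these cells had in the changes was not tested.

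Scavenger receptors and the genes with the largest falls were mostly separate from the interferon lists. Cd36, which takes up oxidized lipid, read 5.47, 5.89 and 6.09 in Adar1 KO and 8.72, 8.82, 8.66 and 9.02 in NTC libraries. All 3 Adar1 KO libraries were lower (log2FC −2.98, SE 0.25, adjusted p 5.09e-10). Cd163, the receptor for haemoglobin, fell by 3.76 (SE 0.44, adjusted p 1.85e-07). Cd5l, a secreted regulator of lipid and infection, had no reads in any Adar1 KO library and read 3.82, 4.04, 4.14 and 4.13 in NTC libraries. That is at least 64.6-fold lower against a floor of 3 counts per library (adjusted p 3.84e-14). Of 9 genes of this list 4 were lower and 0 higher past the size criterion. At any size 5 were lower and 3 (Msr1, Axl and Mertk) higher, and the median was −0.40. Msr1 was the most abundant of the list in both groups (818 CPM in Adar1 KO and 490 CPM in NTC).

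**Figure D4:**
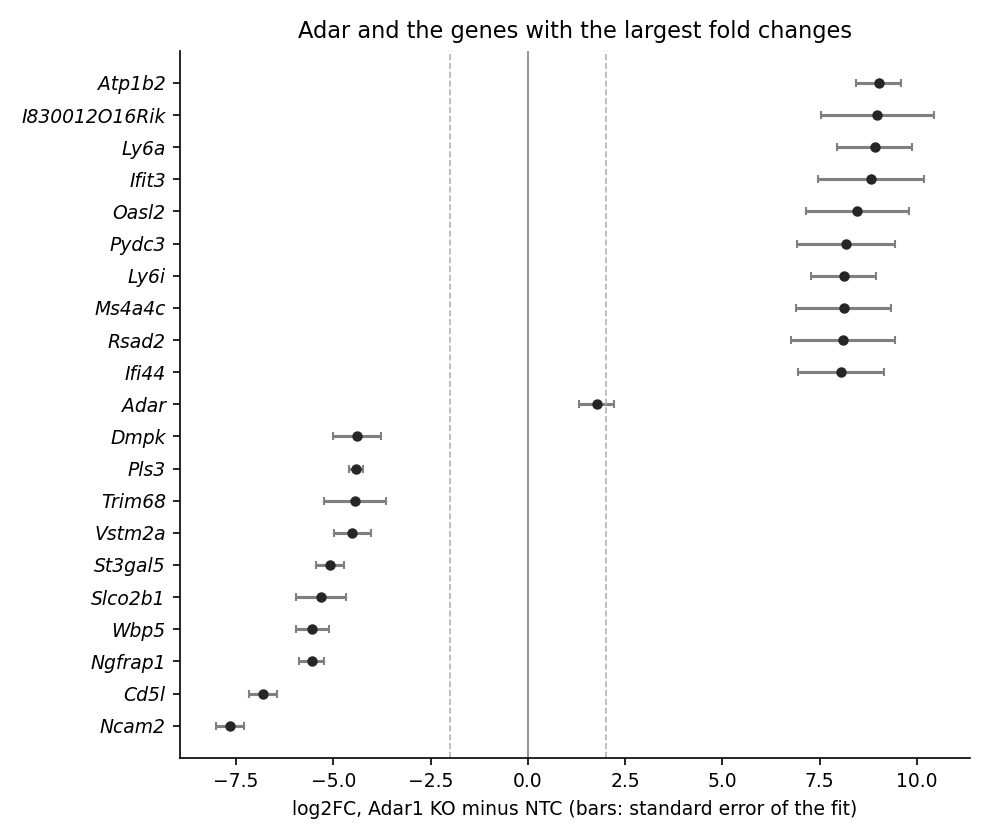
Log2FC of Adar1 KO minus NTC (horizontal axis, points) with the standard error of the fit (bars) for Adar and for the 10 genes with the largest rises and the 10 with the largest falls (vertical axis), with dashed lines at the size criterion. Values run from −7.65 for Ncam2 to 9.02 for Atp1b2, and the bars are widest for the interferon-stimulated genes, such as I830012O16Rik with 1.45.

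The plot of the largest changes sets the falls beside the rises. Ncam2, a cell adhesion molecule, read −0.95, −1.71 and −1.52 in Adar1 KO and 6.13, 6.51, 6.19 and 6.17 in NTC libraries. No value came near the other group (log2FC −7.65, SE 0.36, adjusted p 4.63e-15). Pls3, which bundles actin, read 4.56, 5.00 and 4.46 against 9.06, 9.21, 9.12 and 8.98. That gave a log2FC of −4.42 (SE 0.18, adjusted p 5.73e-16) with no overlap. Ngfrap1, a cell death adaptor, and Trim68, a ubiquitin ligase, had no reads in any Adar1 KO library and were at least 26.7-fold and at least 12.5-fold lower. Wbp5, an adaptor protein, fell by 5.54, Slco2b1, an anion transporter, by 5.32, St3gal5, which makes the ganglioside GM3, by 5.08, and Vstm2a, a secreted protein, by 4.51. Dmpk, a kinase, read −2.78, −1.25 and −1.50 against 2.95, 3.28, 3.17 and 0.83. The groups did not overlap although 1 NTC library was low (log2FC −4.40, SE 0.62, adjusted p 3.19e-06).

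Stress response, cell death and further lists were read in the same way. Over all genes tested 5.12% passed the size criterion, and 16.6% were higher and 15.7% lower at any size. Lists with few such genes, such as sterol synthesis and osteoclast, are therefore not read as changed. Ddit3, which encodes the stress factor CHOP, read 7.05, 7.36 and 7.12 in Adar1 KO and 4.15, 3.89, 3.72 and 3.88 in NTC libraries. It was high in all 3 (log2FC 3.27, SE 0.47, adjusted p 4.85e-06) and was the only 1 of 13 stress response genes past the size criterion (median 0.63). Of 16 cell death genes 0 passed it, with 8 higher and 3 lower at any size (median 0.17, and 0.06 under quantile normalization). Tlr2, a receptor for bacterial lipoprotein, rose by 2.36 (adjusted p 5.15e-06), the only 1 of 11 Toll-like receptor pathway genes past it (median 0.12, and 0.04 under quantile normalization). Complement genes were split: C3, the central component, rose by 4.73 (SE 0.59, adjusted p 4.92e-07), Cfb by 5.41 and C4b by 3.15, while 1 gene fell at any size (2 without the library that stood apart), and over 10 genes the median (−0.40) and the mean (0.83) differed in sign. Among 15 lysosomal genes 0 passed the criterion and 8 were higher at any size (median 0.45; under quantile normalization 6 higher, 1 lower and a median of 0.11), with Ctss, a protease that prepares antigen, up by 1.92. Of 14 sterol synthesis genes 0 passed it and 3 were lower at any size (6 without the library that stood apart; median −0.31). Of 6 lipid efflux genes 0 passed it and 2 were higher (median 0.31), and of 5 osteoclast genes 0 passed it and 1 was higher (median 0.03). Of 8 genes of the NRF2 oxidative stress response 1 passed it, Gsr, the glutathione reductase, at 2.30 (median 0.11, and −0.06 under quantile normalization).

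Whether the difference between genotypes itself changed with the dose was tested as the difference of log2FC between the third dose and another dose, called at an adjusted p under 0.05 and a size of at least 1. Against 0 µM, 1 gene (0.00897%) passed in limma, while 1107 genes were under an unadjusted p of 0.05. The count was 13 with only the groups compared and 149 with a weight for each library (array weights). It was 3 without the library that stood apart and 0 with 1 added to each CPM. In the fit of all 33 libraries 0 of the 20 interferon-stimulated genes passed, and their median difference was 1.09. The median SE of their log2FC at the third dose was 1.03 in that fit and 0.36 without the library that stood apart. A count of 0 therefore does not show that their effect was the same at both doses. The gene that passed in the fit of all 33 libraries was Dapk1, a kinase of cell death. It had no reads in the 3 Adar1 KO libraries of the third dose and read 0.94, 1.36, 1.37 and 1.03 in NTC libraries, at least 8.48-fold lower. Its log2FC of −3.96 compared with −0.48 at 0 µM (difference −3.48, SE 0.55, adjusted p 0.00911). The difference did not pass without NTC replicate 2 of 0 µM (−3.25, adjusted p 0.076), nor with 1 added to each CPM (−1.33, adjusted p 0.238). Against 0.4 µM, 49 differences were positive (0.439%) and 154 negative (1.38%), and leaving out the library that stood apart gave 329 and 480. Of the 20 interferon-stimulated genes 1 had a positive difference there (median 1.67), as did 3 of 19 MHC class I genes (median 1.04), and 1 of 14 mitosis genes had a negative one (median −1.51). Without that library these were 18 (median 4.00), 13 (median 1.75) and 14 (median −2.32). Against 10 µM, 1175 were positive (10.5%) and 812 negative (7.28%). At 10 µM, 17 of the 20 interferon-stimulated genes had a positive difference (median 5.43), as did 16 of 19 MHC class I genes, and all 14 mitosis genes had a negative one (median −3.14). Adar had a difference of 3.13 against 10 µM (SE 0.63, adjusted p 0.000439), and −0.08 against 0 µM (adjusted p 0.982).

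**Figure D5:**
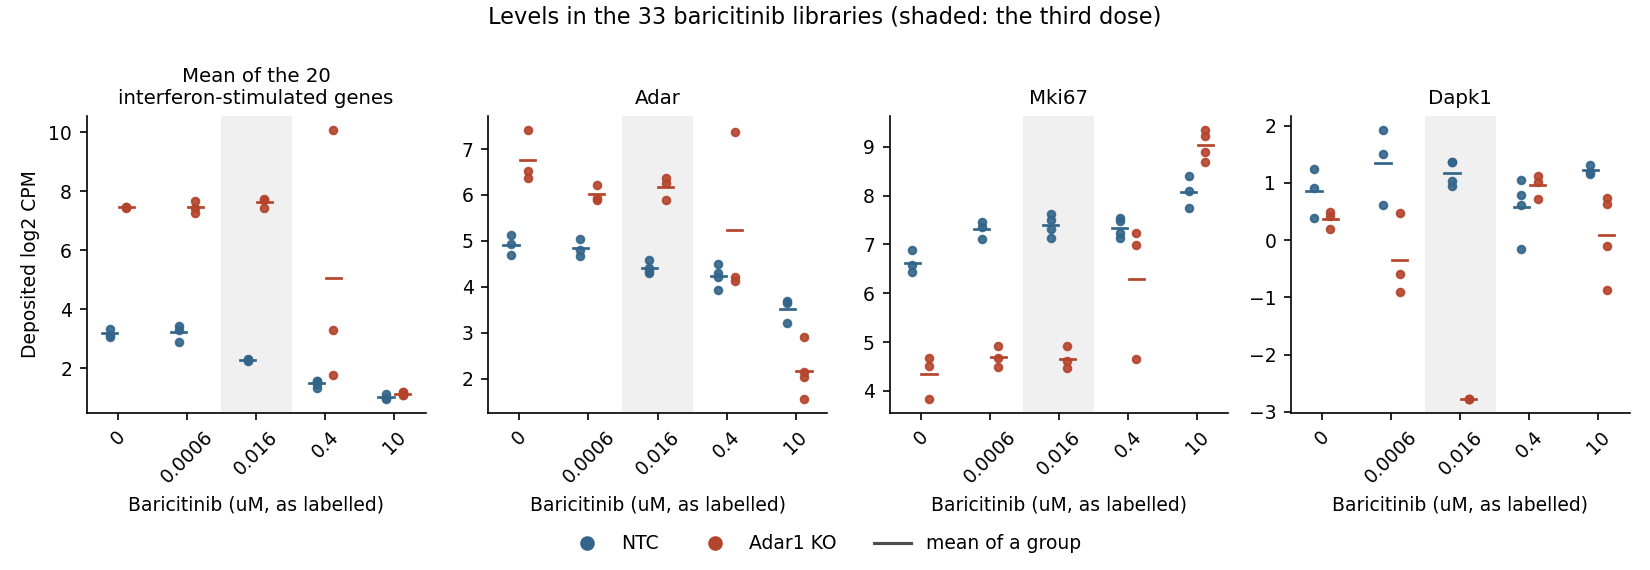
Deposited log2 CPM (vertical axes) of the mean of 20 interferon-stimulated genes, of Adar, of Mki67 and of Dapk1 in each of the 33 libraries at each baricitinib dose in µM as labelled (horizontal axes), blue for NTC and red for Adar1 KO, with a short line at the mean of each group and the third dose shaded. At the third dose the Adar1 KO libraries lie at 7.44 to 7.73 for the interferon-stimulated genes and the NTC libraries at 2.26 to 2.33, and at 10 µM the ranges are 1.09 to 1.22 and 0.96 to 1.15.

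The plot of levels by dose gives the level of each group. For the 20 interferon-stimulated genes the mean in Adar1 KO was 7.45 at 0 µM and 7.62 at the third dose, while in NTC it was 3.19 and 2.29; the mean log2FC of the genes was 4.26 and 5.33. At 0.4 µM the Adar1 KO mean was 5.05 with libraries from 1.78 to 10.08, and at 10 µM it was 1.15. Mki67 in Adar1 KO averaged 4.34 at 0 µM, 4.66 at the third dose and 9.04 at 10 µM, and in NTC 6.63, 7.39 and 8.07. Because every dose has its own NTC libraries, each difference rests on 4 groups. At 0, 0.0006, 0.4 and 10 µM the log2FC of Ncam2 was −7.51, −7.03, −7.37 and −7.44, that of Pls3 −4.83, −4.94, −4.04 and −4.26, and that of Atp1b2 7.18, 9.23, 8.44 and 6.40. Neither Ncam2 nor Pls3 had a called difference against 0, 0.4 or 10 µM, and Atp1b2 had one against 10 µM (2.62, adjusted p 0.0134).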

How the data were processed

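RNA-seq libraries of 92 samples were deposited as 1 table of 29957 entries by sample, of which 33 belong to the baricitinib experiment and 7 to the comparison reported. Per the labels and the study's methods, the authors filtered reads with FastP, assigned them with Kallisto 0.46.0 to the GRCm39 transcriptome and summed them to genes. The deposited values are log2 CPM after the authors' TMM scaling in edgeR with a prior count. The entry without a gene name held 0.00226% to 0.0126% of a library. CPM were rebuilt as 2 to the power of the value less the same for the lowest value, and depth was read from the smallest step between low values (mean 13.76 M, against 13.75 M from the lowest value). Only 20.4% to 35.1% of low values were whole multiples of that step within a tolerance of 0.02, so counts were not recovered and no count test was run.

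Genes with more than 1 CPM in at least 3 of the 33 libraries were tested with limma 3.58.1 (R 4.3.3), with 1 mean for each of 10 groups of genotype and dose, empirical Bayes moderation with a trend, and Benjamini-Hochberg adjustment. The comparison called genes at an adjusted p under 0.05 and a log2FC of at least 2 in size, the study's criteria, and differences of effects at a size of at least 1. Tables came from pandas 2.3.3 and numpy 2.4.6 under Python 3.11.15, and plots from matplotlib 3.10.9. Folds against a group without reads use a floor of 3 counts per library; counting intervals are 95% intervals and, like the floor, cover counting error only.

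The text names Adar, the 10 genes with the largest rise and the 10 with the largest fall among called genes whose groups do not overlap, the 5 largest called differences of effects in each direction, and from each gene list those with the largest change or highest level. Members and lists were chosen with earlier results of these data known, and further list members named, such as those that did not change, were picked after their values were seen. Alternatives covered the libraries in the fit, the filter, the pseudocount, quantile normalization, the variance model, library weights, blocks, leaving out each library and the size criterion. The baricitinib libraries at 0.0006 µM entered the fit, the plot by dose and a few values given for that dose but no test of a difference between doses, and the samples outside the baricitinib experiment were not used. Values of some genes are not reported here. Labels and protocol differ on the concentration of the third dose.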

Additional observations from a re-analysis of the deposited data

Results flagged for a closer look

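In 43 groups of 4 libraries checked for a library far from the others, 3 passed Dixon's critical value; chance alone flags about 1 in 20 groups (5 percent). Ms4a4c read 0.58 in NTC replicate 1 at the third dose, where the others read −1.97 to −1.67. Ncam2 read 6.51 in NTC replicate 2, where the others read 6.13 to 6.19. Dmpk read 0.83 in NTC replicate 4, where the others read 2.95 to 3.28. Each of these libraries stood apart in 1 of the genes checked.

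The effect of the Adar guide differed between the third dose and other doses by a test of the difference in limma. Against 0 µM, Dapk1 differed by −3.48 (SE 0.55, adjusted p 0.00911). It lost the call under log2(CPM + 1) (−1.33, adjusted p 0.238) and without NTC 0 µM replicate 2 (−3.25, adjusted p 0.076). Among genes whose difference passed the test against 0.4 µM, the largest positive differences were those of Ifi44 (5.78), Trim30d (5.44), Ly6a (5.42), Cyp2a4 (3.20) and Gpr82 (3.09), and the largest negative ones those of Dapk1 (−4.34), Cd5l (−3.79), Dmpk (−3.30), Maged1 (−3.28) and St3gal5 (−3.22). That ranking rests on an Adar1 KO group at 0.4 µM that includes replicate 2, which read 7.10 in Ifi44 beside −1.42 and −1.50. Without it the 5 positive differences were 8.64, 8.10, 7.78, 3.50 and 3.04, and Plac8 (7.39) and Rsad2 (7.32) took the places of Cyp2a4 and Gpr82. On the negative side Myh7b (−4.01) took that of Maged1 (−3.77). Among those that passed against 10 µM, the largest positive ones were those of I830012O16Rik (8.62), Trim30d (8.53), Ly6a (8.39), Ifi44 (8.35) and Pydc3 (8.21), and the largest negative ones those of Hist1h2ap (−5.85), Tdp2 (−5.54), Brca2 (−5.31), Clasrp (−5.02) and Hist1h2ag (−5.0). Their adjusted p-values ran from 1.48e-05 for Dapk1 against 0.4 µM to 0.0377 for Ifi44 against 0.4 µM. Of the 10 genes named against 0.4 µM 5 lost the call under some alternatives, mostly when 1 library was left out, as did 3 of the 10 against 10 µM. The histone genes Hist1h2ap and Hist1h2ag belong to a cluster of near-identical copies between which reads may be split. Hist1h2ag, Dapk1 and Cd5l had no reads in any Adar1 KO library of the third dose, so the size of their differences is not exact. Brca2 read −2.78, 3.27, −2.36 and −2.78 in the NTC libraries of the third dose, so its effect there rests on replicate 2.

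In the libraries at 0.0006 µM, which no difference above used, the 20 interferon-stimulated genes had a mean log2FC of 4.23 between Adar1 KO and NTC libraries, and Adar had one of 1.18. Whether these differ from the third dose was not tested.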

How the results depend on the processing

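Of Adar, the 20 genes with the largest rises and falls, the differences of effects named and the means of the 2 lists below, none reversed its direction under any alternative run, while the median of the NRF2 list went from 0.11 to −0.06 under quantile normalization and that of the osteoclast list from 0.03 to −0.02 with only the groups compared. The count of 571 changed genes was 355 with a mean CPM above 5, where fewer genes were tested, 348 with log2(CPM + 1), which shrinks low values, and 1417 (556 higher, 861 lower) with a size limit of 1, which admits more genes by construction; it lay between 538 and 600 when 1 library was left out. Under log2(CPM + 1) 190 were higher and 158 lower, the other way round from 261 and 310. The mean log2FC of the 20 interferon-stimulated genes, 5.33, moved to 4.88 under log2(CPM + 1) and ranged from 5.28 to 5.42 when 1 library was left out. The mean of the 13 macrophage genes, 0.23, lay at 0.12 under quantile normalization and at 0.17 to 0.30 with 1 library left out. For Adar, the 10 genes with the largest rises and the 10 with the largest falls, 354 of 354 values kept their direction and call. In the gene lists, log2(CPM + 1) left 19 of 20 interferon-stimulated genes and 3 of 13 genes of double-stranded RNA sensing past the size criterion. That setting also left 5 of 8 guanylate-binding protein genes, 5 of 6 immunity-related GTPases, 1 of 10 cytokines and 3 of 9 co-stimulation genes past it. The same held for 1 of 7 JAK feedback genes, 11 of 14 mitosis genes and 3 of 9 scavenger genes.

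The 1 difference against 0 µM became 13 with only the groups compared, 0 with a mean CPM above 5, 0 with log2(CPM + 1) and 149 with array weights; the cause was not tested. With 1 library left out it ranged from 0 (without NTC 0 µM replicate 2) to 10 (without Adar1 KO 0 µM replicate 3), and was 3 without Adar1 KO 0.4 µM replicate 2, an alternative chosen after seeing the data. Dapk1 was lost in 2 of 22 values: −1.33 (adjusted p 0.238) under log2(CPM + 1) and −3.25 (adjusted p 0.076) without NTC 0 µM replicate 2. The range of adjusted p over its other alternatives stayed under 0.05.

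The 203 differences against 0.4 µM became 991 with array weights and 46 with a limit of 2, and ranged from 159 to 809 with 1 library left out; the 809 came without Adar1 KO 0.4 µM replicate 2, and the cause was not tested further. Over the 10 genes named there, 49 of 226 values lost the call, in Ifi44, Trim30d, Ly6a, Gpr82 and Dmpk. The 1987 differences against 10 µM became 608 with a limit of 2 and ranged from 1721 to 2124 with 1 library left out. Over the 10 genes named there, 7 of 237 values lost the call, in Tdp2, Brca2 and Clasrp, with Brca2 at −3.83 (adjusted p 0.0648) without NTC third-dose replicate 2.

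A replicate block, with the title's replicate number as a term, gave 600, 1, 204 and 2113 genes for the 4 tests, and a library series block 585, 1, 217 and 1925. Values of Adar1 KO and NTC libraries with the same title number correlated across genes by 0.0558, −0.0165 and 0.0602, so no pairing was used. The blocks changed no call of Adar, of the 10 largest rises, of the 10 largest falls or of the differences named. Depth from 6.16 to 30.6 M counts limits genes near the floor, such as Ifnb1, whose fold is a lower bound.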
